A study of Mus musculus with 8 samples.

Results

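The genes described here encode sarcomere and contractile proteins: myosin heavy and light chains, troponins, tropomyosins, actins, and the proteins of the Z-disc, the M-line and the elastic scaffold. A probe was a member if its gene symbol began with Myh, Myl, Tnnt, Tnni, Tpm, Myoz, Myom or Actn followed by a digit, or was Tnnc1, Tnnc2, Mybpc1, Mybpc2, Mybph, Acta1, Actc1, Ttn, Neb, Myot, Ldb3, Tcap, Des, Trim54 or Csrp3. The rule used symbols alone and held 66 of the 24607 probes, which stand for 48 of the 15967 named genes. Of these, 61 probes and 44 genes were above background on both arrays of at least 1 group and were tested among 9963 genes. Myh6, Myh8, Myh14 and Myl7 were not above background on any array. Of the 44 tested members, 39 passed this filter in both tissues, and Actc1, Mybph, Myl10, Neb and Tnnt2 passed it in muscle alone, so their tissue differences were in part fixed by the filter. Ldb3, Myh1, Myh3 and Myh7 were not analysed here.

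RNA from quadriceps muscle and brown adipose tissue (brown fat) of C57BL/6J mice was measured on 8 bead arrays with 1 colour. The groups were quadriceps at 4 °C for 4 h, quadriceps at room temperature, brown fat at 4 °C for 4 h and brown fat at room temperature, with 2 arrays each. Mice exposed to cold had eaten freely overnight and then lost access to food and bedding, and the handling of the mice at room temperature is not stated. The labels do not say that replicates came from separate mice, so the p-values cover the spread of these arrays, which could be technical. Levels are log2 intensities after background correction and quantile normalization. Members were tested with limma, and a difference was called when its Benjamini-Hochberg adjusted p over all 9963 genes was under 0.05.

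In a sarcomere, myosin motors of the thick filament pull on actin, and calcium binding to troponin C moves tropomyosin off the actin sites that myosin needs. Fast and slow muscle fibres use different genes for most of these parts, so a fibre's type can be read from which myosin light chains, troponins and Z-disc proteins it makes. The mouse quadriceps is made mostly of fast fibres. Brown adipocytes are known to share a precursor with skeletal muscle, but they do not form sarcomeres, and like other cells they contract through non-muscle myosin.

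The arrays were similar in depth, with 10468 to 11280 probes above background on each. Replicates correlated at 0.977 to 0.9959 over the tested genes. Members differed between replicates by a median of 0.24 log2 units in cold muscle, 0.14 in muscle at room temperature, 2.71 in cold brown fat and 0.23 in brown fat at room temperature, whereas the median over all tested genes was 0.11 to 0.15 in each group. Muscle fibre markers other than the members (10 tested, such as Ckm and Pvalb) had a summed level of 190518 and 177679 in cold muscle, 191866 and 191531 in muscle at room temperature, 688 and 36816 in cold brown fat, and 32244 and 37627 in brown fat at room temperature, as linear normalized intensity. Brown adipocyte markers (13 tested, such as Ucp1 and Cidea) summed to 5101 and 49126 in cold muscle and 1929 and 2486 in muscle at room temperature, against 95910 and 86938 in cold brown fat and 93978 and 93584 in brown fat at room temperature. So 3 of the 4 brown fat arrays carried muscle fibre transcripts, cold brown fat replicate 1 carried few, and cold muscle replicate 2 carried brown fat transcripts. The part these transcripts play in the differences between tissues and between temperatures was not tested. The labels number the cold muscle arrays in 2 ways that disagree, and the number in the title is used here.

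The first comparison set quadriceps against brown fat at room temperature. Of the fast isoforms 10 were higher in quadriceps, whereas 6 slow isoforms were lower in quadriceps than in brown fat. Of the 44 tested members 30 were higher in quadriceps, where 34.8% of all tested genes were, and 12 were lower, where 33.8% of all tested genes were. Among the 11 tested fast isoforms 10 were higher and 0 lower, with a median log2 difference of 4.05. Among the 9 tested slow isoforms 2 were higher and 6 lower, with a median of -2.26. The median over all tested genes was 0.01. The groups did not overlap in 30 members with the higher values in quadriceps and 13 with the lower, against 43.3% and 41.9% of all tested genes.

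**Figure D1:**
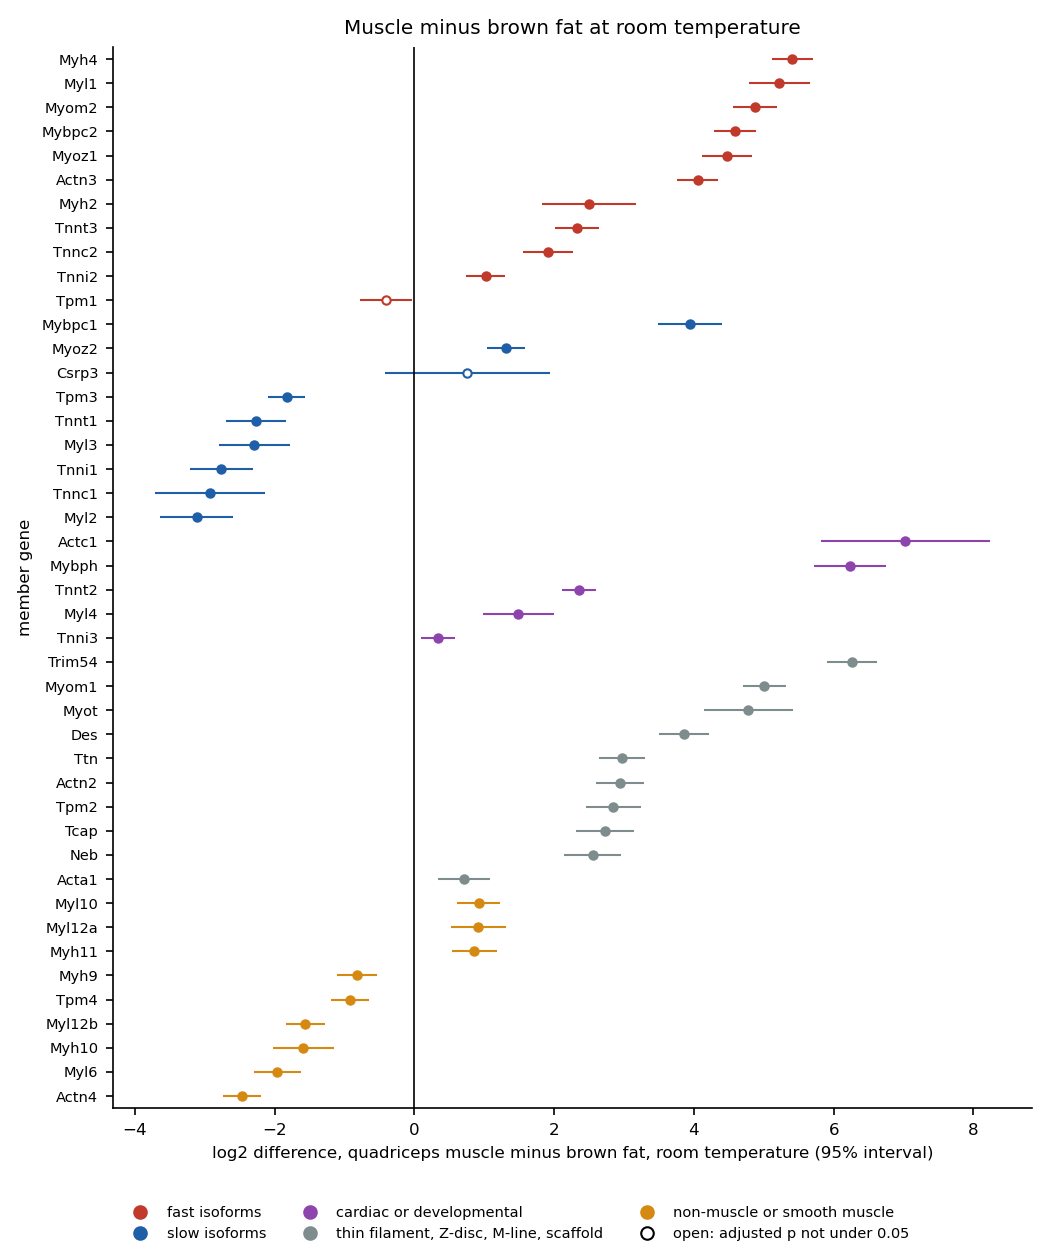
Log2 difference between quadriceps muscle and brown fat at room temperature for the 44 tested members (points, 2 arrays a group) with 95% intervals (bars), grouped by isoform class. Fast isoforms lie right of 0 except Tpm1, and 6 slow isoforms lie left of 0, from Tpm3 at -1.83 to Myl2 at -3.11.

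The heavy chain of the fastest fibres, Myh4, had levels of 14.40 and 14.36 in cold muscle, 14.44 and 14.53 in muscle at room temperature, 5.13 and 9.09 in cold brown fat and 8.97 and 9.19 in brown fat at room temperature. Its difference at room temperature was 5.41 (SE 0.12, adjusted p = 5.38e-07), or 42.4-fold. Myh2, the heavy chain of fast oxidative fibres, had 12.69 and 10.33 in cold muscle, 12.18 and 12.27 in muscle at room temperature, 5.18 and 9.72 in cold brown fat and 9.27 and 10.19 in brown fat at room temperature, a difference of 2.50 (SE 0.28, adjusted p = 0.000258). Both heavy chains were separated between the tissues on every array at room temperature, and the gap was wider for Myh4. Myl1, the essential light chain of fast myosin, had 13.99 and 13.90 in cold muscle, 14.18 and 14.01 in muscle at room temperature, 7.50 and 8.93 in cold brown fat and 8.62 and 9.13 in brown fat at room temperature, a difference of 5.22 (SE 0.18, adjusted p = 1.48e-06). Mybpc2, the fast myosin-binding protein C, had 14.16 and 14.08 in cold muscle, 14.35 and 14.20 in muscle at room temperature, 5.16 and 10.05 in cold brown fat and 9.58 and 9.79 in brown fat at room temperature, a difference of 4.59 (SE 0.12, adjusted p = 7.32e-07). Cold brown fat replicate 1 was the lowest array for each of these 4 thick filament genes.

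The 3 fast troponins were also higher in quadriceps. Tnni2, the inhibitory subunit, had 14.61 and 14.61 in cold muscle, 14.60 and 14.62 in muscle at room temperature, 6.13 and 13.80 in cold brown fat and 13.49 and 13.69 in brown fat at room temperature, a difference of 1.02 (SE 0.12, adjusted p = 0.000302). Tnnc2, the calcium sensor, had 14.43 and 14.54 in cold muscle, 14.62 and 14.67 in muscle at room temperature, 6.27 and 12.99 in cold brown fat and 12.54 and 12.92 in brown fat at room temperature, a difference of 1.91 (SE 0.15, adjusted p = 4.8e-05). These 2 were above 12 on 3 brown fat arrays and near 6 on cold brown fat replicate 1. Tnnt3, the subunit that binds tropomyosin, had 14.59 and 14.54 in cold muscle, 14.70 and 14.54 in muscle at room temperature, 5.71 and 12.47 in cold brown fat and 12.17 and 12.42 in brown fat at room temperature, a difference of 2.33 (SE 0.13, adjusted p = 1.19e-05). Raw signals of 12 to 14 members were over 50% of the array's maximum on each muscle array, and those of Tnni2, Tnnc2 and Tnnt3 were among them. Whether bright signals narrow the differences of such genes was not tested.

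Z-disc and M-line proteins of fast fibres followed the fast thick filament. Actn3, which cross-links actin at the Z-disc, had 14.48 and 14.46 in cold muscle, 14.57 and 14.46 in muscle at room temperature, 5.73 and 10.74 in cold brown fat and 10.35 and 10.58 in brown fat at room temperature, a difference of 4.05 (SE 0.12, adjusted p = 9.82e-07). Another probe of Actn3 gave 6.28 (SE 0.28). Myoz1, which tethers the phosphatase calcineurin at the Z-disc, had 14.93 and 14.85 in cold muscle, 14.93 and 14.95 in muscle at room temperature, 5.30 and 10.77 in cold brown fat and 10.27 and 10.66 in brown fat at room temperature, a difference of 4.48 (SE 0.15, adjusted p = 1.33e-06). Each of these spanned under 0.2 log2 units over the muscle arrays and over 4 over the brown fat arrays. Myom2, which links thick filaments at the M-line, had 14.15 and 14.19 in cold muscle, 14.31 and 14.27 in muscle at room temperature, 5.80 and 9.98 in cold brown fat and 9.27 and 9.56 in brown fat at room temperature, a difference of 4.88 (SE 0.13, adjusted p = 7.26e-07). Tpm1, a tropomyosin that splicing also makes in non-muscle forms, had 8.24 and 8.24 in cold muscle, 8.48 and 8.88 in muscle at room temperature, 9.17 and 9.005 in cold brown fat and 9.11 and 9.06 in brown fat at room temperature. Its difference of -0.40 (SE 0.15, adjusted p = 0.0536) was not called, and cold brown fat replicate 1 was not low for it.

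Most slow isoforms ran the other way. Myl2, the regulatory light chain of slow and ventricular myosin, had 11.03 and 6.26 in cold muscle, 8.93 and 8.24 in muscle at room temperature, 5.28 and 12.07 in cold brown fat and 11.71 and 11.68 in brown fat at room temperature. It was 8.64-fold lower in quadriceps at room temperature, a difference of -3.11 (SE 0.22, adjusted p = 3.07e-05). Myl3, the essential light chain of the same myosin, had 11.55 and 7.32 in cold muscle, 8.005 and 8.67 in muscle at room temperature, 6.99 and 11.16 in cold brown fat and 10.65 and 10.60 in brown fat at room temperature, a difference of -2.29 (SE 0.21, adjusted p = 0.00011). For both light chains the room temperature groups did not overlap, and the cold groups overlapped. Tnnc1, the slow and cardiac calcium sensor, had 9.97 and 6.35 in cold muscle, 7.27 and 8.38 in muscle at room temperature, 6.25 and 11.20 in cold brown fat and 10.76 and 10.75 in brown fat at room temperature, a difference of -2.93 (SE 0.33, adjusted p = 0.000268). Tnni1, the slow inhibitory troponin, had 7.46 and 5.40 in cold muscle, 5.83 and 6.39 in muscle at room temperature, 5.30 and 9.50 in cold brown fat and 8.90 and 8.86 in brown fat at room temperature, a difference of -2.76 (SE 0.19, adjusted p = 2.69e-05). It was above background on 1 of the cold muscle arrays and 1 of the cold brown fat arrays. Tnnt1, the slow tropomyosin-binding troponin, had 9.67 and 6.82 in cold muscle, 7.95 and 8.47 in muscle at room temperature, 6.73 and 11.26 in cold brown fat and 10.44 and 10.51 in brown fat at room temperature, a difference of -2.26 (SE 0.18, adjusted p = 5.36e-05). All 3 slow troponins were thus lower in quadriceps at room temperature, while the 3 fast troponins were higher.

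The other slow members split. Tpm3, a slow tropomyosin that is also spliced to non-muscle forms, had 7.60 and 7.79 in cold muscle, 7.95 and 7.80 in muscle at room temperature, 9.59 and 9.22 in cold brown fat and 9.72 and 9.69 in brown fat at room temperature, a difference of -1.83 (SE 0.11, adjusted p = 1.58e-05). It was high on all brown fat arrays, cold replicate 1 included, and 1 of its 4 probes showed no call (0.13, adjusted p = 0.33). Myoz2, the slow and cardiac partner of calcineurin, had 11.23 and 8.35 in cold muscle, 10.21 and 10.29 in muscle at room temperature, 5.43 and 9.56 in cold brown fat and 8.87 and 9.02 in brown fat at room temperature, a difference of 1.31 (SE 0.11, adjusted p = 8.11e-05). Mybpc1, the slow myosin-binding protein C, had 13.24 and 11.82 in cold muscle, 12.94 and 12.81 in muscle at room temperature, 5.08 and 9.21 in cold brown fat and 8.65 and 9.21 in brown fat at room temperature, a difference of 3.94 (SE 0.19, adjusted p = 5.91e-06). Another probe of Mybpc1, below background on each brown fat array, gave 1.61 (SE 0.13). These 2 genes of the slow class were higher in quadriceps, like the fast class. Csrp3, a LIM protein of the Z-disc that slow fibres favour, had 11.30 and 6.85 in cold muscle, 9.43 and 8.88 in muscle at room temperature, 5.62 and 8.68 in cold brown fat and 7.58 and 9.21 in brown fat at room temperature, and its difference was not called (0.76, adjusted p = 0.207). In bulk tissue, fewer cells of a type and less RNA per cell cannot be told apart. With 1 spread shared over all 8 arrays, which takes in the divergent cold brown fat pair, 21 members were called higher and 8 lower. Of all tested genes 33.4% were higher and 32.8% lower in that fit. Tpm1 gained a call there, lower in quadriceps (-0.40, adjusted p = 0.0451). The slow isoforms Myl2 (adjusted p = 0.25), Myl3 (0.24), Tnnc1 (0.158), Tnni1 (0.0892), Tnnt1 (0.2) and Myoz2 (0.419) then lost their calls, and so did the fast isoforms Tnni2 (0.679), Tnnc2 (0.375), Tnnt3 (0.287) and Myh2 (0.15), as well as Acta1 (0.773), Ttn (0.175), Tpm2 (0.204) and Tcap (0.0767).

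The promoter windows of a slow and fast pair of calcium sensors and a slow and fast pair of light chains, which differed between the tissues in opposite directions, are shown because they lie just upstream of these isoforms' start sites. Each is the 250 bases before the start site in RefSeq (GRCm38.p6), 5′ to 3′ on the gene's strand, with matches on either strand in capitals to the TATA box (TATAAA), the E-box bound by myogenic factors (CANNTG), the MCAT element bound by TEAD factors (CATTCC), the CArG box bound by SRF and the MEF2 site. Tnnc1 lies at chr14:31208062-31208311 on the plus strand, Tnnc2 at chr2:164779735-164779984 on the minus strand, Myl3 at chr9:110763428-110763677 on the plus strand and Myl1 at chr1:66945057-66945306 on the minus strand.
Tnnc1: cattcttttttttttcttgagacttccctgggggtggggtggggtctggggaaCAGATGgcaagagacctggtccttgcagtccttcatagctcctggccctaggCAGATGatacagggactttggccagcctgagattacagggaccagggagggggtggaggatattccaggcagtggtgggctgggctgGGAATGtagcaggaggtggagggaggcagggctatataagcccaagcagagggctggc
Tnnc2: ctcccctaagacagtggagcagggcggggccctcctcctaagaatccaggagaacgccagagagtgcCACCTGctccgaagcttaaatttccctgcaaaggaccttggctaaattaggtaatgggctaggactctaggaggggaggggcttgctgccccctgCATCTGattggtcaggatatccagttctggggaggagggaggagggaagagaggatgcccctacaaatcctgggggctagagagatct
Myl3: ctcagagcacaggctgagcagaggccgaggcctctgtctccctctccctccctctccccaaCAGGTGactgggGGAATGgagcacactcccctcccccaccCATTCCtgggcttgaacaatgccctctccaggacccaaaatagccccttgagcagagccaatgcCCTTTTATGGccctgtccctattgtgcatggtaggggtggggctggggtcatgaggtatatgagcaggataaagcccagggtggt
Myl1: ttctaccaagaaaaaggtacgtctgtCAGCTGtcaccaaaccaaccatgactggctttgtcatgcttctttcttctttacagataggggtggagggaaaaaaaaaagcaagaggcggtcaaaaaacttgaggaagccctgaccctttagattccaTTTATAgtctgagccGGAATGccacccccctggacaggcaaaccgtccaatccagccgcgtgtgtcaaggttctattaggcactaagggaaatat
The slow Tnnc1 window held 2 E-boxes and 1 MCAT element and the fast Tnnc2 window 2 E-boxes. The slow Myl3 window held 1 E-box, 2 MCAT elements and a CArG box. The fast Myl1 window held 1 E-box, 1 MCAT element and a TATAAA match on the opposite strand, 95 bases before the start site. No 2 of these matches overlapped. Over 32851 mouse promoter windows of this length, 66.2% held an E-box, 12.6% an MCAT element, 12.4% a TATA box, 2.92% a MEF2 site and 1.47% a CArG box. A match is a run of letters and does not show binding.

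The scaffold class, which holds Z-disc, M-line and structural genes with the skeletal actin Acta1 and the tropomyosin Tpm2 of the thin filament, had 10 of 10 tested members higher in quadriceps at room temperature. Of all tested genes 34.8% were higher, and Neb passed the detection filter in muscle alone. Mean levels are given with their SD (n = 2 in each group). Acta1 averaged 14.80 ± 0.04 in cold muscle, 14.75 ± 0.10 in muscle at room temperature, 10.36 ± 5.38 in cold brown fat and 14.04 ± 0.28 in brown fat at room temperature, with the smallest difference of the 10 (0.71, SE 0.15, adjusted p = 0.00627). The titin gene Ttn, whose product spans from Z-disc to M-line, averaged 14.85 ± 0.05 in cold muscle, 14.87 ± 0.00 in muscle at room temperature, 8.73 ± 4.67 in cold brown fat and 11.90 ± 0.23 in brown fat at room temperature. Tpm2, the beta tropomyosin, averaged 14.92 ± 0.04 in cold muscle, 14.90 ± 0.01 in muscle at room temperature, 8.95 ± 4.83 in cold brown fat and 12.06 ± 0.33 in brown fat at room temperature. These 3 bright genes differed by 0.71, 2.97 and 2.85 at room temperature. Dimmer tested probes of Ttn and Tpm2 lay further apart there. For Ttn they had 11.21 and 11.58 in muscle against 5.77 and 5.94 in brown fat, and 10.47 and 10.18 against 5.64 and 6.05. For Tpm2 the other probe had 14.24 and 14.03 in muscle against 10.49 and 10.69 in brown fat. Whether brightness plays a part was not tested. Tcap, which caps titin, averaged 14.21 ± 0.05 in cold muscle, 14.40 ± 0.07 in muscle at room temperature, 9.38 ± 3.10 in cold brown fat and 11.67 ± 0.35 in brown fat at room temperature. Actn2, the actin cross-linker of all fibre types, averaged 13.53 ± 0.76 in cold muscle, 13.72 ± 0.05 in muscle at room temperature, 9.81 ± 2.09 in cold brown fat and 10.78 ± 0.26 in brown fat at room temperature. The differences of Tcap and Actn2 at room temperature were 2.73 and 2.94.

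The remaining 5 of this class were dim in brown fat. Trim54, a ubiquitin ligase tied to microtubules and the sarcomere, averaged 12.79 ± 0.17 in cold muscle, 12.84 ± 0.14 in muscle at room temperature, 6.30 ± 1.63 in cold brown fat and 6.57 ± 0.23 in brown fat at room temperature, the largest difference of the class (6.26, SE 0.15, adjusted p = 5.73e-07). Myom1, the general M-line linker, averaged 12.79 ± 0.03 in cold muscle, 12.61 ± 0.16 in muscle at room temperature, 7.40 ± 1.06 in cold brown fat and 7.60 ± 0.11 in brown fat at room temperature. Myot, a Z-disc protein that bundles actin, averaged 12.08 ± 0.40 in cold muscle, 12.06 ± 0.11 in muscle at room temperature, 6.35 ± 1.73 in cold brown fat and 7.28 ± 0.61 in brown fat at room temperature. Both differed by over 4 log2 units at room temperature. Des, the intermediate filament of muscle, averaged 11.67 ± 0.10 in cold muscle, 11.32 ± 0.03 in muscle at room temperature, 7.39 ± 0.56 in cold brown fat and 7.46 ± 0.27 in brown fat at room temperature, a difference of 3.86. Neb, the ruler of the thin filament, averaged 8.42 ± 0.23 in cold muscle and 7.89 ± 0.33 in muscle at room temperature, and was not well above background on the brown fat arrays (measured means 5.35 ± 0.21 in the cold and 5.34 ± 0.08 at room temperature). It was at least 4.76-fold higher in muscle at room temperature (adjusted p = 2.42e-05).

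Cardiac and developmental isoforms were higher in quadriceps in 5 of 5 tested members at room temperature, against 34.8% of all tested genes. Of these, Actc1, Mybph and Tnnt2 passed the detection filter in muscle alone, which in part fixed their direction. Actc1, the cardiac actin that skeletal muscle makes in development, differed by 7.03 (SE 0.50, adjusted p = 3.52e-05), though it was above background on 1 of the 2 brown fat arrays. Another probe of Actc1, below background on each brown fat array, gave 4.76 (SE 0.18). Mybph, a relative of myosin-binding protein C, averaged 11.42 ± 0.70 in cold muscle, 11.83 ± 0.43 in muscle at room temperature, 5.41 ± 0.25 in cold brown fat and 5.59 ± 0.20 in brown fat at room temperature, and was above background on 1 brown fat array of the 4. Its difference at room temperature was 6.24 (SE 0.21). Tnnt2, the cardiac troponin T, averaged 7.30 ± 0.75 in cold muscle and 7.69 ± 0.03 in muscle at room temperature, was not well above background in brown fat (measured means 5.44 ± 0.20 in the cold and 5.33 ± 0.02 at room temperature) and was at least 4.14-fold higher in muscle at room temperature (adjusted p = 3.69e-06). The cardiac troponin I gene Tnni3 stayed near background, with means of 6.32 ± 0.12 in cold muscle, 6.46 ± 0.02 in muscle at room temperature, 6.18 ± 0.01 in cold brown fat and 6.12 ± 0.04 in brown fat at room temperature, and its small difference of 0.34 (adjusted p = 0.0238) was lost without muscle replicate 1 (0.112) or 2 (0.0943) or brown fat replicate 1 (0.0635) at room temperature. Myl4, the light chain of atrial and embryonic muscle, was higher in quadriceps by 1.49 (SE 0.21, adjusted p = 0.000797) at room temperature.

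Contractile genes of non-muscle cells, which serve cell shape and division, and of smooth muscle were mostly lower in quadriceps: 6 of 9 tested were lower in quadriceps and 3 were higher. Of all tested genes 33.8% were lower and 34.8% higher at room temperature. Myl6, the essential light chain of non-muscle and smooth muscle myosin, averaged 11.38 ± 0.31 in cold muscle, 11.00 ± 0.10 in muscle at room temperature, 13.10 ± 0.12 in cold brown fat and 12.96 ± 0.23 in brown fat at room temperature, a difference of -1.96 (SE 0.14, adjusted p = 3.52e-05). Actn4, the non-muscle actin cross-linker, averaged 9.02 ± 0.28 in cold muscle, 8.64 ± 0.10 in muscle at room temperature, 10.83 ± 0.06 in cold brown fat and 11.10 ± 0.07 in brown fat at room temperature, a difference of -2.46 (SE 0.11, adjusted p = 4.54e-06). The regulatory light chain Myl12b averaged 10.45 ± 0.20 in cold muscle, 10.33 ± 0.12 in muscle at room temperature, 11.84 ± 0.16 in cold brown fat and 11.89 ± 0.06 in brown fat at room temperature. All 3 were lower in quadriceps and steady over the brown fat arrays, cold replicate 1 included. Of the non-muscle heavy chains, Myh9 averaged 10.99 ± 0.02 in cold muscle, 10.98 ± 0.09 in muscle at room temperature, 11.79 ± 0.23 in cold brown fat and 11.80 ± 0.12 in brown fat at room temperature. Its relative Myh10 averaged 6.59 ± 0.27 in cold muscle, 6.05 ± 0.25 in muscle at room temperature, 7.67 ± 0.34 in cold brown fat and 7.64 ± 0.28 in brown fat at room temperature. Their differences at room temperature were -0.82 and -1.59, and another probe of Myh9 gave -0.12 (adjusted p = 0.383). Tpm4, a non-muscle tropomyosin, averaged 10.77 ± 0.08 in cold muscle and 10.44 ± 0.09 in muscle at room temperature, against 12.05 ± 0.25 in cold brown fat and 11.36 ± 0.09 in brown fat at room temperature, and had a difference of -0.92 at room temperature. The 3 higher in quadriceps were the smooth muscle heavy chain Myh11 (0.86), the regulatory light chain Myl12a (0.92) and Myl10, which was not well above background in brown fat and was at least 1.55-fold higher in muscle. Myh11 averaged 8.07 ± 0.04 in cold muscle, 9.03 ± 0.20 in muscle at room temperature, 7.73 ± 0.68 in cold brown fat and 8.17 ± 0.08 in brown fat at room temperature. Myl12a averaged 8.09 ± 0.56 in cold muscle, 8.12 ± 0.30 in muscle at room temperature, 7.77 ± 0.08 in cold brown fat and 7.20 ± 0.12 in brown fat at room temperature. Myl10 averaged 6.22 ± 0.72 in cold muscle, 6.27 ± 0.09 in muscle at room temperature, 5.29 ± 0.03 in cold brown fat and 5.35 ± 0.17 in brown fat at room temperature.

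**Figure D2:**
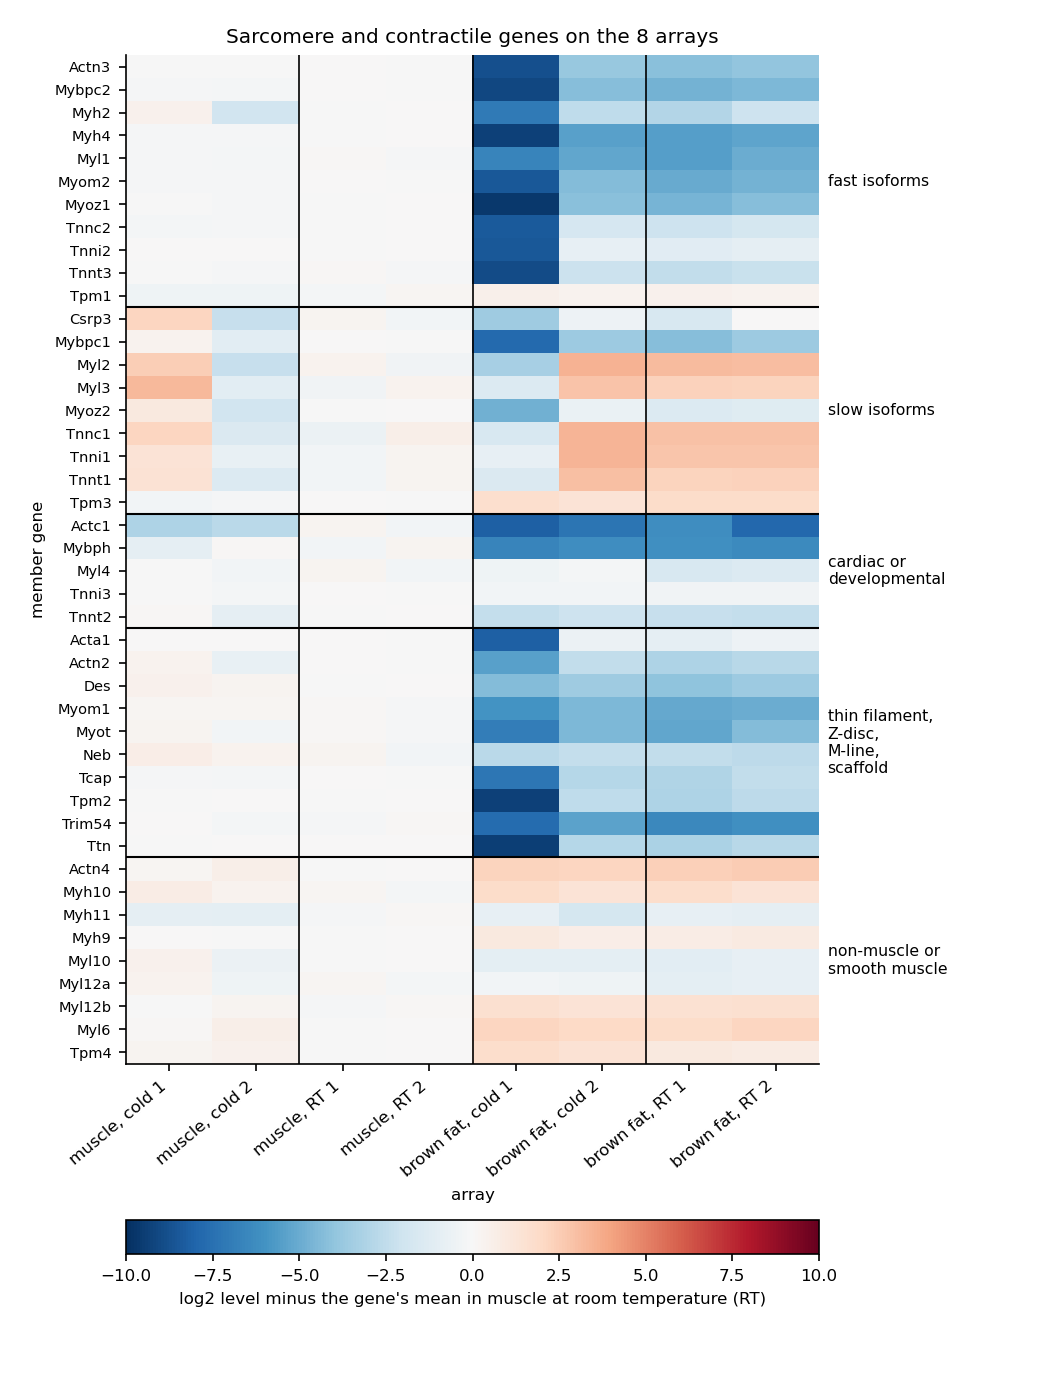
Log2 level of each of the 44 tested members on each array minus the gene's mean in muscle at room temperature (RT), with members grouped by class down the page and arrays across. Blue is lower and red is higher, and the fast and scaffold rows are darkest on the first cold brown fat array, while most slow rows are red on the other 3 brown fat arrays.

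The next comparison set brown fat at 4 °C against brown fat at room temperature. Of the 44 tested members 1, Myl4, was higher in the cold, where 4.72% of all tested genes were, and 0 were lower, where 5.17% of all tested genes were. An unadjusted p under 0.05 was seen in 3 members and in 29.6% of all tested genes. Myl4 had 9.40 and 9.64 in cold brown fat against 8.25 and 8.47 at room temperature, so the groups did not overlap. It rose 2.24-fold, a difference of 1.16 (SE 0.15, adjusted p = 0.0184). Without cold replicate 1 or 2 the rise was 1.28 (adjusted p = 0.0288) or 1.04 (0.0272). Without replicate 1 or 2 at room temperature no gene of the 9963 was called, and the value for Myl4 was 1.05 (adjusted p = 0.117) or 1.27 (0.104). The rise was also not called in the authors' processed values (adjusted p = 0.0568) or with median scaling (0.774).

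A pair of non-muscle genes came near the threshold in cold brown fat. Tpm4 had 12.23 and 11.88 in the cold against 11.42 and 11.29 at room temperature, with no overlap (0.70, SE 0.16, adjusted p = 0.0566), and was called with 1 spread shared over all arrays (adjusted p = 0.0188). With 1 array left out its adjusted p was 0.124 or 0.0318 without cold replicate 1 or 2, and 0.184 or 0.249 without replicate 1 or 2 at room temperature. Its other probes gave 1.06 (adjusted p = 0.054) and 0.65 (0.145). Myl12a had 7.83 and 7.71 in the cold against 7.12 and 7.29 at room temperature, with no overlap (0.57, SE 0.12, adjusted p = 0.0531). Across members the groups did not overlap upward in 4 and downward in 2, against 31.4% and 28.2% of all tested genes.

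The sarcomere members themselves differed between the cold brown fat arrays rather than between temperatures. Cold replicate 1 was lower than each of the other 3 brown fat arrays in 31 of 44 tested members, against 2708 of all 9963 tested genes. It was lower than their mean by over 1 log2 unit in 27 members (61.4%), against 2.23% of all tested genes. By class, this gap was over 1 in 10 of 11 fast, 8 of 9 slow and 8 of 10 scaffold members, and in 0 of 9 non-muscle members. It was -7.53 for Tnni2 and Acta1 and -4.65 for Tnnc1, which were above background there. On that array 20 members were below background, Myh4, Myl2, Ttn and Tnni1 among them, against 1324 of all 9963 tested genes. Of the 10 fibre markers that are not members, 8 were lower there by over 1 log2 unit. Over both cold arrays the median difference was -2.23 for fast and -1.48 for slow isoforms, with SE up to 2.39, against 0.02 over all tested genes. In a fit without 1 cold array, the array that remains has no replicate, and the spread comes from the room temperature pair alone. Without cold replicate 1 these medians were 0.21 and 0.44, and 1 member was called lower, against 3.03% of all tested genes (Myh11, -0.92, adjusted p = 0.0412). Without cold replicate 2 they were -4.55 and -3.64, genes below background included at their measured level, and 25 members were called lower, against 6.11% of all tested genes. The sign of the fast and slow medians in cold brown fat therefore rests on 1 array.

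**Figure D3:**
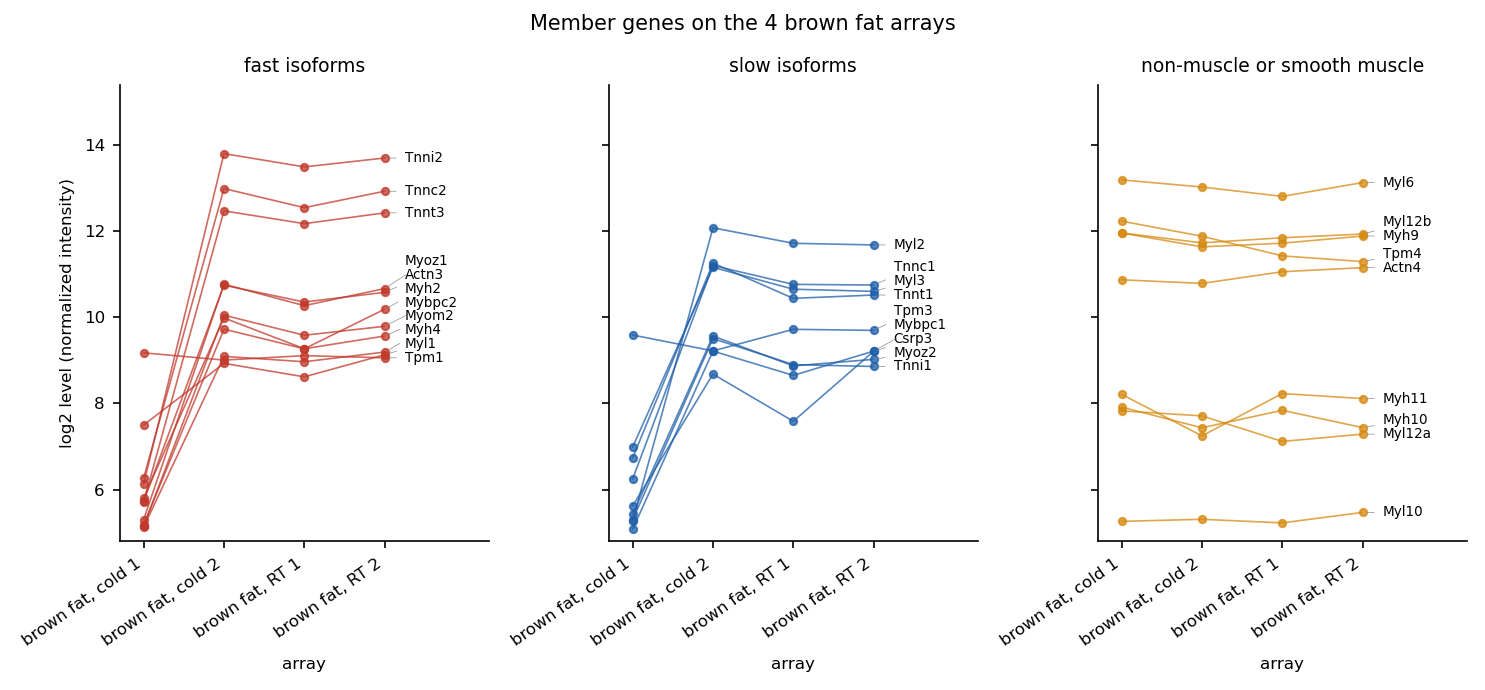
Log2 level of fast, slow and non-muscle members on the 4 brown fat arrays, with a line joining the values of 1 gene. Cold replicate 1 is the low array for 10 of 11 fast and 8 of 9 slow genes, and for 0 of 9 non-muscle genes, of which Myl6 lies between 12.80 and 13.19 and Tpm4 between 11.29 and 12.23.

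In quadriceps, the cold was set against room temperature in the same way. Of the 44 tested members 0 were higher, where 0.652% of all tested genes were, and 1 was lower, where 0.642% of all tested genes were. An unadjusted p under 0.05 was seen in 6 members and in 20.8% of all tested genes. The gene that fell was Actc1. It had 10.34 and 10.69 in cold muscle, against 13.66 and 13.18 in muscle at room temperature, so both cold arrays lay under both others by over 2 log2 units. The fall was 7.48-fold, a difference of -2.90 (SE 0.21, adjusted p = 0.0227), and its other probe gave -3.08 (adjusted p = 0.0245). In brown fat Actc1 had 5.23 and 6.11 in the cold against 7.25 and 5.54 at room temperature, with 1 array of each group above background and overlapping values. The skeletal actin Acta1 had 14.78 and 14.83 in cold muscle against 14.82 and 14.68 in muscle at room temperature, a difference of 0.05 (interval -0.22 to 0.32, adjusted p = 0.818).

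The fall of Actc1 kept its size without cold replicate 1 (-2.73) or cold replicate 2 (-3.08). Brown adipocyte markers summed to 5101 on cold replicate 1 and 49126 on cold replicate 2, against 1929 and 2486 in muscle at room temperature. Their part in the fall was not tested. Without replicate 1 or 2 at room temperature no gene of the 9963 was called, and Actc1 differed by -2.66 (adjusted p = 0.235) or -3.14 (0.23). In the authors' processed values the difference was -2.90 (adjusted p = 0.0671), and without both cold muscle replicate 2 and cold brown fat replicate 1 its adjusted p was 0.0615.

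The 250 bases before the RefSeq start sites of these sister actins, of which 1 fell in cold muscle, are shown in the same way. Actc1 lies at chr2:114052876-114053125 and Acta1 at chr8:123894776-123895025, both on the minus strand.
Actc1: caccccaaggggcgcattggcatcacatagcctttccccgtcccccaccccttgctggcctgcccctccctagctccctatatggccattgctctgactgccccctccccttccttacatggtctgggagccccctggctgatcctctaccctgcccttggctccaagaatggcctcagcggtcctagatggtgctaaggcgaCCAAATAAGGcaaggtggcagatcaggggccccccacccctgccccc
Acta1: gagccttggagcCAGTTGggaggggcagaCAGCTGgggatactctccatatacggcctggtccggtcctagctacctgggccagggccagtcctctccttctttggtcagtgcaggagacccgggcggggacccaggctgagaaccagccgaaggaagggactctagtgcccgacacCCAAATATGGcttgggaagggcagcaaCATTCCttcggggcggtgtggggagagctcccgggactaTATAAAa
The Actc1 window held a CArG box 47 bases before the start site. The Acta1 window held a CArG box 73 bases before it, an MCAT element, 2 E-boxes and a TATA box, none overlapping.

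**Figure D4:**
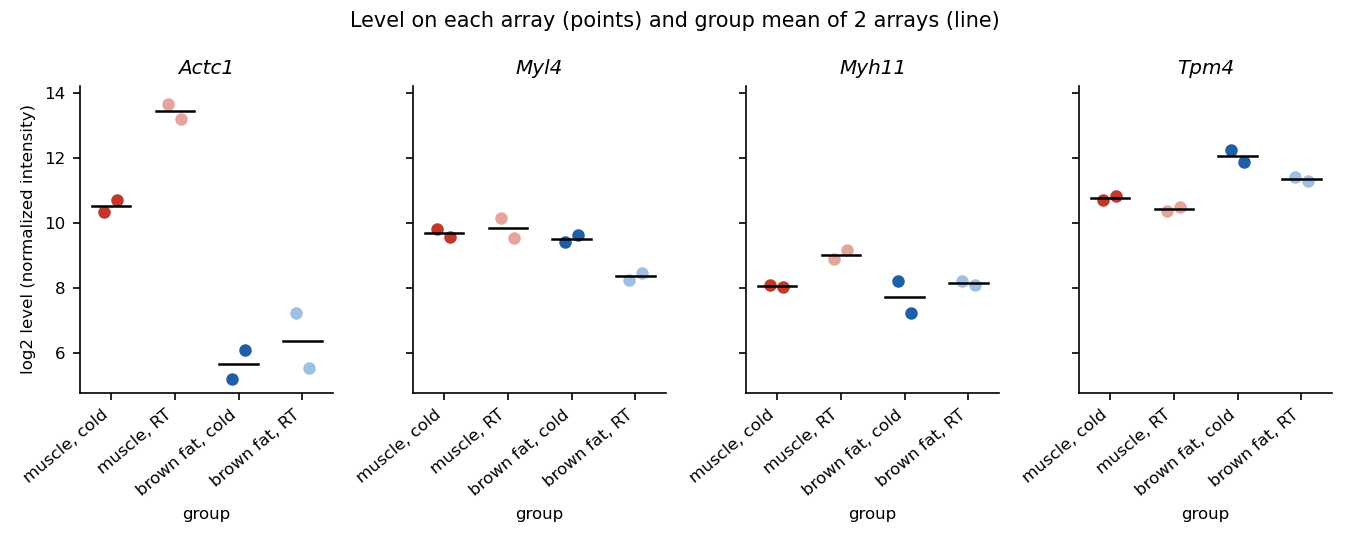
Log2 level of Actc1, Myl4, Myh11 and Tpm4 on each array (points) with the mean of the 2 arrays of a group (line). Actc1 is lower on both cold muscle arrays and Myl4 higher on both cold brown fat arrays than on their counterparts at room temperature.

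Apart from Myh2, the cold arrays of each fast isoform lay within 0.2 log2 units of each other in muscle. Of the 11 tested, 10 had a value below 0 and 6 lay wholly under room temperature, with a median of -0.12 against -0.02 over all tested genes, and none was called. Myh11, of smooth muscle, came nearest after Actc1, with 8.10 and 8.04 in cold muscle against 8.89 and 9.17 at room temperature (-0.96, SE 0.13, adjusted p = 0.0568), with an adjusted p of 0.0259 or 0.0629 without cold replicate 1 or 2, and 0.297 or 0.38 without replicate 1 or 2 at room temperature. Smooth muscle and pericyte markers (8 tested) summed to 6296 and 6551 in cold muscle against 8508 and 9523 at room temperature, and their part in the Myh11 value was not tested. Des (0.35), Myom1 (0.18), Neb (0.53), Myh10 (0.54), Actn4 (0.38), Myl6 (0.37) and Tpm4 (0.34) had both cold arrays above both others without a call, and Tpm1 (-0.44) had both below. Over the tested members the groups did not overlap upward in 7 and downward in 11, against 23.7% and 30.8% of all tested genes.

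Slow isoforms instead separated the 2 cold muscle arrays from each other. In 8 of 9 slow members, all but Tpm3, cold replicate 1 was the highest and cold replicate 2 the lowest of the 4 muscle arrays, as held for 14 of 44 tested members and 7.15% of all tested genes. Cold replicate 1 exceeded cold replicate 2 by over 1 log2 unit in 51 of 9963 genes (0.512%), of which 12 were members, and the reverse gap held in 2.57% of genes and 0 members. The gap was 4.77 for Myl2, the widest of all tested genes, 4.45 for Csrp3, 4.23 for Myl3, 3.62 for Tnnc1, 2.88 for Myoz2, 2.85 for Tnnt1, 2.06 for Tnni1 and 1.43 for Mybpc1. Outside the slow class it was 2.36 for Myh2, 1.08 for Actn2, 1.06 for Tnnt2 and 1.03 for Myl10, while Myh4 (0.03), Myl1 (0.10) and Tnni2 (0.00) had nearly equal arrays. In the 12 members with a gap over 1, the room temperature values lay between the cold ones.

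**Figure D5:**
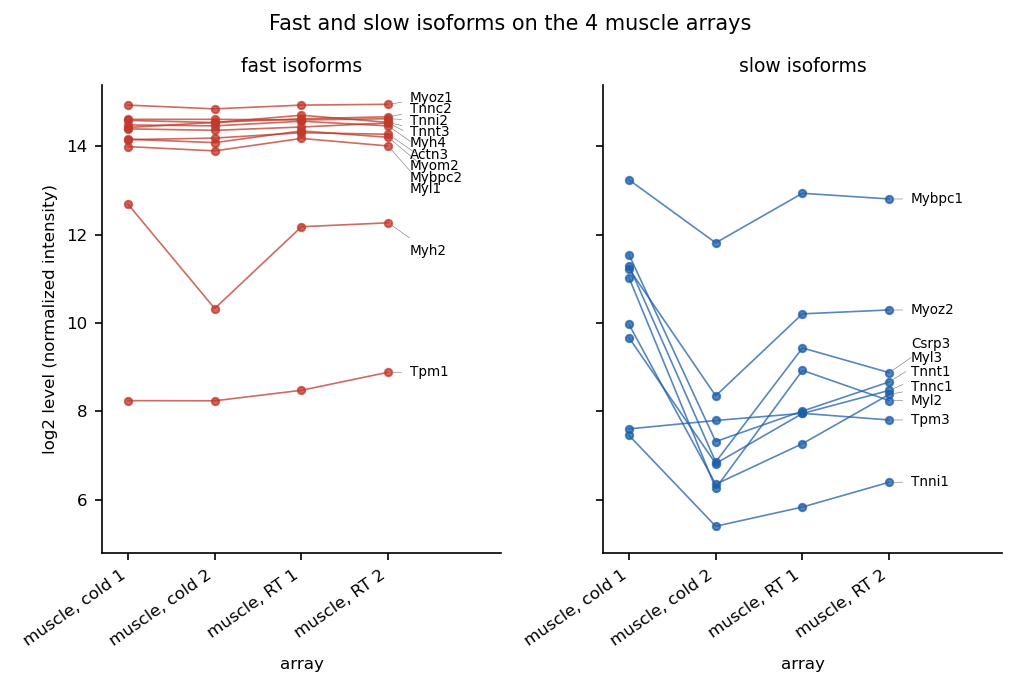
Log2 level of fast and slow members on the 4 muscle arrays, with a line joining the values of 1 gene. Fast genes run level apart from Myh2, whereas 8 slow genes are highest on cold replicate 1 and lowest on cold replicate 2, with Myl2 at 11.03 and 6.26.

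No slow isoform was called in cold muscle, and SE in this class reached 1.55. The slow median was 0.03 with both cold arrays, -1.40 without cold replicate 1 and 1.46 without cold replicate 2. The fits that follow keep 1 cold array, so their spread comes from the room temperature pair and assumes that the lone array varies like it. Without cold replicate 1, 10 members were called lower, against 4.13% of all tested genes, among them Csrp3 (-2.30), Myl2 (-2.33), Myoz2 (-1.90), Myh2 (-1.90) and Tnnt1 (-1.40). Without cold replicate 2, 4 were called higher, against 1.47% of all tested genes: Myl3 (3.21), Myl2 (2.44), Csrp3 (2.14) and Myoz2 (0.98). The direction of the slow class in cold muscle thus turned with the array left out. Brown adipocyte markers were high on cold replicate 2, as given above, and the fibre marker sums of the 2 cold arrays were close. Of the 10 tested fibre markers 1, Mb, split like the slow members. It had 14.12 and 12.88 in cold muscle against 13.43 and 13.49 at room temperature, while the median gap over the 10 was 0.06. The part of either marker list in the split was not tested.

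No member was called for the difference between the cold effects of muscle and brown fat, against 2.14% of all tested genes higher and 2.08% lower, and 3 had an unadjusted p under 0.05, against 24.3% of all tested genes. Myl4 had 9.81 and 9.57 in cold muscle against 10.16 and 9.54 in muscle at room temperature, a value of -0.16 that was not called, and with its rise in brown fat this gave a difference between effects of -1.32 (interval -2.04 to -0.60, adjusted p = 0.0613). The cold effects of Actc1 differed by -2.18 (interval -3.98 to -0.37, adjusted p = 0.144). With each probe tested for itself, its other probe gave -3.14 (SE 0.30, adjusted p = 0.01), which was a call. That probe was below background on each brown fat array. Median scaling also gave a call for Actc1 (-2.31, adjusted p = 0.0457). The intervals of fast and slow members were wide, such as -3.19 to 10.45 for Tnni2 and -4.32 to 10.48 for Myl2. Without cold brown fat replicate 2, which leaves 1 cold brown fat array, 14 members were called with the higher effect in muscle, against 2.23% of all tested genes.

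In the cold, 17 tested members were higher in quadriceps than in brown fat, where 27.5% of all tested genes were, and 8 were lower, where 30.4% were. The groups did not overlap in 26 members upward and 8 downward, against 38.4% and 44.3% of all tested genes. Among fast isoforms 6 of 11 were higher and 1, Tpm1, was lower (-0.85, SE 0.12, adjusted p = 0.00484). Myh4 was higher by 7.27 (SE 1.32, adjusted p = 0.00982) and Myl1 by 5.73 (SE 0.49, adjusted p = 0.00154), whereas Tnni2 (4.65, adjusted p = 0.181), Tnnc2 (4.86, 0.126) and Tnnt3 (5.47, 0.0968) were not called, with SE of 2.54, 2.23 and 2.24. Of the slow class Mybpc1 was higher (5.38, adjusted p = 0.0315) and Tpm3 lower (-1.70, 0.00226), and the other 7 were not called. The slow median was -0.03 with all cold arrays, -1.72 without brown fat replicate 1 and 2.45 without brown fat replicate 2, and -1.76 without muscle replicate 1 and 2.35 without muscle replicate 2. Non-muscle members kept the direction seen at room temperature, with 6 of 9 lower in quadriceps, such as Actn4 (-1.81, adjusted p = 0.0019) and Myl6 (-1.73, 0.00259). Actc1 was still higher in cold muscle (4.85, adjusted p = 0.00116), and Mybph was at least 50.6-fold higher. Without cold muscle replicate 1, where the cold brown fat pair alone gives the spread, 10 members were called higher in quadriceps, against 20.5% of all tested genes. Without both cold muscle replicate 2 and cold brown fat replicate 1, where the room temperature arrays give the spread, 28 were, against 27.3% of all tested genes.

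Other genes of sarcomere assembly and turnover, which no member rule covers, were tested beside the members. Of 19 tested, 0 were called in cold muscle and 0 in cold brown fat, against 1.29% and 9.89% of all tested genes. The largest values in cold muscle were those of the atrophy ubiquitin ligases Trim63, which tags myosin for degradation, with 10.70 and 10.78 in the cold against 9.22 and 8.44 at room temperature (1.91, SE 0.27, adjusted p = 0.0573), and Fbxo32, with 12.14 and 11.95 in the cold against 10.62 and 9.80 at room temperature (1.84, SE 0.29, adjusted p = 0.0666). In cold brown fat they were those of the titin-associated gene Cmya5 (-1.60, adjusted p = 0.41) and the thin filament cap Tmod4 (-1.59, 0.503). Cmya5 had 7.15 and 10.76 in the cold against 10.38 and 10.73 at room temperature, and Tmod4 had 5.57 and 10.003 in the cold against 9.20 and 9.56 at room temperature, so cold replicate 1 was low for both and cold replicate 2 was above both arrays at room temperature. At room temperature 18 of the 19 were higher in quadriceps and 1 lower, against 34.8% and 33.8% of all tested genes. Ankrd23 (5.91), Pdlim3 (5.83), Pdlim7 (5.56) and Tmod4 (4.91) led those that were higher. In the cold 16 were higher and 1 lower, against 27.5% and 30.4% of all tested genes.

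Of 18 tested regulators of fibre type, 0 were called in cold muscle and 2 rose in cold brown fat. Of all tested genes 1.29% were called in cold muscle and 4.72% rose in cold brown fat. The coactivator Ppargc1a, which in muscle drives slow and oxidative genes, had 12.94 and 12.90 in cold brown fat against 9.50 and 10.18 at room temperature (3.08, SE 0.24, adjusted p = 0.0107), and the nuclear receptor Esrrb had 9.48 and 9.18 in the cold against 7.84 and 7.30 at room temperature (1.76, SE 0.22, adjusted p = 0.0184). In muscle Ppargc1a differed by 0.74 (adjusted p = 0.157) and the deacetylase Hdac4 by 0.92 (0.0582). Ppargc1a was the regulator called for the difference between cold effects (-2.34, adjusted p = 0.0265), where 2.08% of all tested genes were lower. At room temperature 12 regulators were higher in quadriceps and 0 lower, against 34.8% and 33.8% of all tested genes. Myf6 (5.21), Tbx15 (4.28), Vgll2 (4.26) and Mef2c (3.95) led those that were higher.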

How the data were processed

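Quadriceps muscle and brown fat of C57BL/6J mice were measured at 4 °C and at room temperature, 2 arrays a group. Per the file headers, the first deposited table holds 1 signal intensity for each probe and array and a detection p-value, but that column rises with the signal, so 1 minus its value served as the detection p-value. The authors' processed intensity values, in a second table, hold 32.8% of values below 0 and the same range on each array, and were read as background subtracted and quantile normalized. No source used here names the bead software or the submitters' background and normalization steps. The number of arrays limits the precision.

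In R 4.3.3 with limma 3.58.1, signals were corrected by normexp with negative controls inferred from detection p, 16 was added as an offset, the 8 arrays were quantile normalized together and log2 was taken. A probe was kept if any group had it detected (p under 0.05) on both of its arrays. The brightest probe stood for a gene. Of the probes, 20980 carry 1 gene symbol in the platform annotation, 1 several and 3626 none. Each cold effect and tissue difference was fitted with lmFit and eBayes on the 4 arrays it concerns, since members vary widely between brown fat arrays, and the difference between cold effects on all 8. P-values were adjusted over 9963 genes. For a gene below background on both arrays of a group, a bound replaces the fold: the other group's mean is set against, for each dim array, the higher of the gene's own value and the lowest detected one. Each tested member is named with its level in each group, fast and slow members with each array, and in other lists up to 4 called genes, or 2 if none was called. Members, lists, tests and alternatives were chosen with earlier results of these data known. The fit was tested on simulated data. Alternatives covered the spread, a replicate block, background, normalization, the authors' values, filters, probes, an intensity trend and leaving out arrays.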

Additional observations from a re-analysis of the deposited data

How the results depend on the processing

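No called result changed direction under the alternatives run, where the fit of each probe for itself was judged by the gene's main probe. A dimmer probe of Tpm3, which was not called, had the other sign between tissues at room temperature. It had 6.10 and 6.13 in muscle against 6.05 and 5.93 in brown fat. Counts of members called are given against the reported ones for settings that keep 2 arrays a group, and shares of all tested genes follow. For fits that leave 1 array in a group, medians are given here and counts of members are not. In cold muscle, 5 were higher without cold brown fat replicate 1 and cold muscle replicate 2, and 0 to 4 with 1 array left out. 0 were lower with the authors' values and 2 of the probes with each probe for itself, and 0 to 10 with 1 array left out. The fast median was -0.39 with median scaling, which moved the median of all genes by -0.20, -0.29 with strict detection and -0.0875 without both arrays, and -0.14 to -0.082 with 1 array left out, and the slow median -1.40 to 1.46. In cold brown fat, 2 were higher with 1 spread over all arrays, with no background correction and with an intensity trend, 0 with median scaling or the authors' values, 3 with strict detection or without both arrays, and 0 to 2 with 1 array left out. 19 were lower with median scaling, where the fit gave all genes 1 spread, 1 without both arrays and 0 to 25 with 1 array left out. The fast median was 0.21 without both arrays and -4.55 to 0.21 with 1 array left out, and the slow median -3.64 to 0.44. For the difference between cold effects, 1 was lower with median scaling, strict detection or each probe for itself. For the tissues at room temperature, 10 were higher with strict detection and 19 probes lower with each probe for itself. The fast median was 4.51 with median scaling and 2.41 with strict detection, and the slow median -1.90 with median scaling, -1.39 with each probe for itself and -2.52 to -1.96 with 1 array left out. For the tissues in the cold, 26 were higher with median scaling, 11 with no filter, 6 with strict detection, 28 without both arrays and 10 to 24 with 1 array left out. 3 were lower with median scaling and 14 probes with each probe for itself. The fast median was 2.44 with strict detection and 3.73 to 8.48 with 1 array left out. Strict detection, a detection p under 0.01 on all 8 arrays, tests fewer genes, and each probe for itself counts several probes for a gene. Other causes were not tested. Over all tested genes, median scaling called 0.381% higher and 1.38% lower in cold brown fat. Between tissues in the cold it called 14.3% higher and 8.09% lower. Strict detection called 9.36% higher in cold brown fat, and 36.4% and 29.6% higher in quadriceps at room temperature and in the cold. With no filter 13.7% were higher in the cold. In cold brown fat 8.38% were higher with 1 spread, 5.37% with no background correction and 5.02% with an intensity trend. Each probe for itself called 33.9% of all tested probes lower in quadriceps at room temperature, 30.7% lower in the cold and 0.402% lower in cold muscle. For the difference between cold effects 0.161% were lower with median scaling, 3.77% with strict detection and 1.71% with each probe for itself. The authors' values gave 0 calls over all genes in both cold effects. Actc1 kept its call in cold muscle in 11 of 15 alternatives, with values of -3.14 to -2.66, and Myl4 in cold brown fat in 12 of 16, with 0.92 to 1.28. Deviations of same-numbered arrays correlated at -0.13 to 0.18 between groups, so the numbers were not taken as pairs. With the replicate block, 2 members were higher in cold brown fat (Myl4 and Tpm4) and 13 lower in quadriceps at room temperature, and the other counts of members were as reported, although in the cold Ttn gained a call (adjusted p = 0.04996) and Actn2 lost one (0.0527). Over all tested genes the replicate block called 6.34% higher in cold brown fat and 33.5% lower in quadriceps at room temperature. Crossing the numbers of cold muscle, chosen after seeing the data, gave 21 higher and 8 lower in the cold, against 26.1% and 29% of all tested genes. Members below background on an array have no order there, and a fit without 1 array tests an arm of 1 array with the spread of the others, and 2 arrays a group limit what can be detected.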

Other observations

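The 15 genes with the widest gap of cold muscle replicate 1 over cold muscle replicate 2 were listed after the values were seen. Beside 8 members they held Ankrd2, a Z-disc and titin-binding protein of slow fibres, with 11.29 and 8.24 in cold muscle, 9.38 and 8.97 in muscle at room temperature, 5.31 and 7.26 in cold brown fat and 6.19 and 7.32 in brown fat at room temperature. They also held Bdh1, the enzyme of ketone body oxidation, with 8.53 and 6.09 in cold muscle against 6.93 and 6.57 in muscle at room temperature, and the small heat shock gene Hspb7, with 11.28 and 8.93 in cold muscle against 9.76 and 8.56 in muscle at room temperature. An unnamed probe of this list had 10.14 and 5.78 in cold muscle, 6.42 and 8.31 in muscle at room temperature, 5.16 and 12.01 in cold brown fat and 11.70 and 11.59 in brown fat at room temperature. Its lowest arrays in each tissue were those of Myl2 and Tnnc1. The immediate early genes Fos and Atf3 and the gene Erdr1 were the others, with gaps of 2.30, 2.06 and 2.46.

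Muscle fibre markers were higher in quadriceps at room temperature in 10 of 10 tested genes, with a median log2 difference of 4.16, close to that of the fast isoforms (4.05). Brown adipocyte markers were lower in quadriceps at room temperature in 13 of 13, and in cold muscle 0 of 13 were called, although their median difference was 1.81. Of all tested genes 34.8% were higher and 33.8% lower in quadriceps at room temperature. In cold muscle 0.652% of all tested genes were higher and 0.642% lower. Among fibroblast markers 1 of 5 fell in cold muscle, while 0 of 7 endothelial and 0 of 8 smooth muscle and pericyte markers did. Satellite cell and regenerating fibre markers (2 tested) summed to 661 and 488 in cold muscle against 812 and 799 at room temperature, with 0 called.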
